A study of Marchantia polymorpha with 9 samples.

Results

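The genes of the male sex chromosome of the liverwort Marchantia polymorpha were examined in vegetative tissue. They were taken as every gene of the expression table whose identifier names contig A or contig B of the Y chromosome, apart from 1 bHLH gene of contig B that was left out. This gave 112 Y genes of 19287 genes in the table, 63 on contig A and 49 on contig B. The sources used here give neither a name nor a function for these identifiers, so each Y gene is called by its identifier.

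M. polymorpha is haploid for most of its life, and its green plant body, the thallus, is a gametophyte. Sex is set by a single chromosome: males carry a Y, females carry a U, and every cell of a male thallus therefore holds the Y genes. The Y chromosome does not recombine over most of its length and is rich in repeats. Some Y-linked genes act in male reproduction, whereas others have a counterpart on the U chromosome and are used in the vegetative body of both sexes.

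RNA was sequenced from thalli of MpBHLH12ox#2, MpBHLH12ox#3 and wild-type Tak-1, all 3 weeks old, untreated and of the Tak-1 background, a male strain. Both overexpressor lines carry MpBHLH12 (MpGL3 in the sample labels), a bHLH transcription factor gene, as a Citrine fusion under a constitutive promoter, and each is 1 independent transformant. Tak-1 was not transformed, and a transformant without MpBHLH12 is not among the samples. The labels give 3 biological replicates per group and a total of 9 pieces of thallus. The paper's methods give 9 pieces for each overexpressor line. How the pieces were divided among the replicates is not stated.

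The table holds 1 average FPKM per group (fragments normalized for gene length and library size), so neither the spread between replicates nor the depth of a library can be seen, and every value below is a description without a test. MpBHLH12 (Mapoly0031s0161) had 547.6 FPKM in MpBHLH12ox#2 and 474.6 in MpBHLH12ox#3, against 20.3 in Tak-1, as the labels require. EF1a (Mapoly0024s0116), the reference gene of the study, had 4057 and 3956 FPKM in the lines and 3564 in Tak-1. Over genes averaging at least 5 FPKM, the median log2 ratio to Tak-1 was -0.0052 in MpBHLH12ox#2 and -0.0055 in MpBHLH12ox#3, so no rescaling was applied.

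Most Y genes were listed at or near 0 in the thallus. With 1 FPKM or more in any group taken as expressed, 37 of the 112 Y genes were expressed (33.0%), against 13286 of the 19174 genes off the Y contigs (69.3%). In 34 Y genes (30.4%) the table lists 0 in all 3 groups, against 6.85% of the genes off the Y contigs. A further 24 Y genes stayed under 0.1 FPKM, and 17 reached between 0.1 and 1 FPKM. These counts describe the table and are no test of the Y genes against other genes. The unknown handling of reads that map to several places limits them too.

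Most of the expressed Y genes were expressed in all 3 groups, as were 12559 of the 13286 expressed genes off the Y contigs. Of those other genes, 12896 reached 1 FPKM in MpBHLH12ox#2, 12993 in MpBHLH12ox#3 and 12886 in Tak-1. Of the 37, 37 reached 1 FPKM in MpBHLH12ox#2, 36 in MpBHLH12ox#3 and 34 in Tak-1, and 34 did so in all 3 groups. Transcripts of Y genes were thus detected in both transformed lines and in the wild type, and the study's methods describe Tak-1 as male. The 3 genes that did not pass in every group were MapolyY_A0030, MapolyY_B0042 and MapolyY_B0049, and all 3 were below 1 FPKM in Tak-1. No Y gene switched between 0 and 1 FPKM or more: the 14 genes listed at 0 in some but not all groups reached at most 0.338 FPKM elsewhere.

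Contig B had the larger share of expressed genes, with 19 of 49 (38.8%), and contig A had 18 of 63 (28.6%). Small scaffolds of the assembly, those with 5 or fewer listed genes, lay between the Y genes and the large scaffolds: 53.0% of their 694 genes were expressed, against 70.5% of 16003 genes on scaffolds with 50 or more. The difference between the contigs was not tested, because genes of a contig are not replicates.

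**Figure D1:**
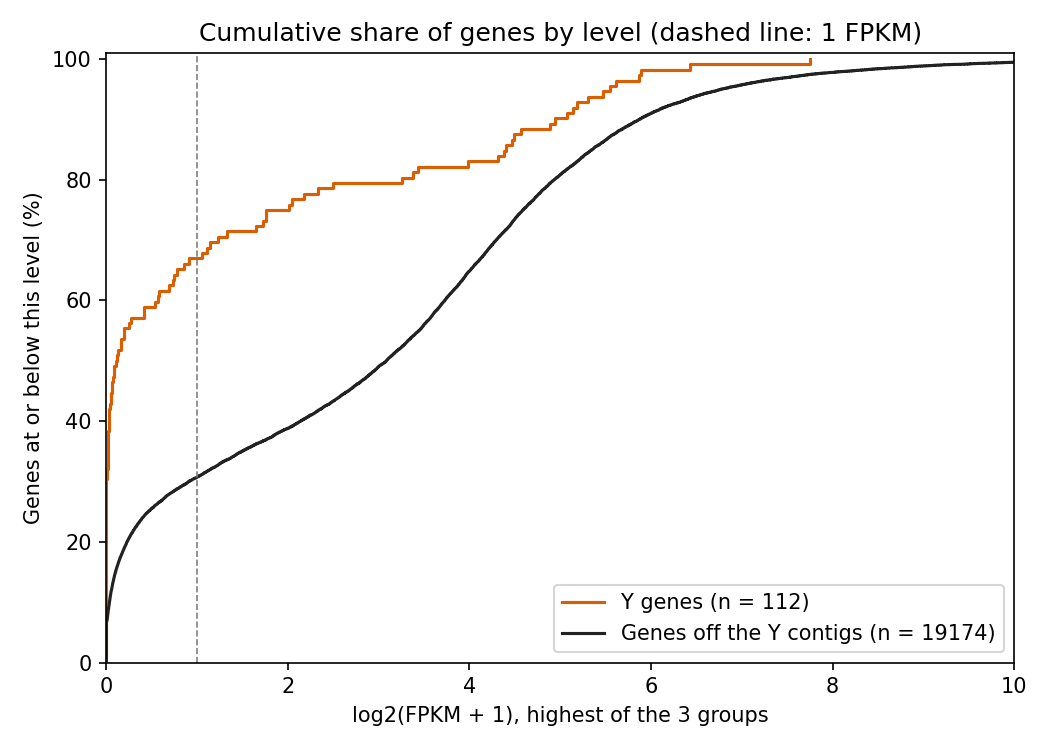
Cumulative share of genes (percent, vertical axis) at or below a level, given as log2(FPKM + 1) of the highest of the 3 groups (horizontal axis), for the 112 Y genes and the 19174 genes off the Y contigs. The Y curve starts at 30.4% of genes at 0 and reaches the 1 FPKM line with 75 of the 112 genes below it, where 5888 of the 19174 other genes are below.

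The median level of the expressed genes was above that of other genes on contig A and below it on contig B. FPKM is scaled to gene length, so levels of different genes can be set side by side in that respect. The scaling does not correct for reads that map to several places. The median of the 37 expressed Y genes was 18.5 FPKM in MpBHLH12ox#2, 15.6 in MpBHLH12ox#3 and 18.3 in Tak-1, and that of the 13286 expressed genes off the Y contigs was 13.7 FPKM in MpBHLH12ox#2, 13.9 in MpBHLH12ox#3 and 13.7 in Tak-1. By mean level over the 3 groups, the median was 20.5 FPKM on contig A and 8.95 FPKM on contig B, against 13.8 FPKM for the other expressed genes. Of the 37, 19 had a mean level above the median of the other expressed genes. The upper quartile was alike in both sets, at 33.4 FPKM for the Y genes and 30.9 for the others in Tak-1. The lower quartile was 2.45 FPKM for the Y genes and 5.52 for the others in Tak-1, so the expressed Y genes reached further down.

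Fewer Y genes had middle levels than low or high ones among those expressed. By the highest of the 3 groups, 17 Y genes had 20 FPKM or more, 6 had 5 to 20 and 14 had 1 to 5 FPKM. In the same order, the genes off the Y contigs numbered 5447, 5244 and 2595. The bands are unequal in width, the Y genes are few, and the pattern was not tested. By mean level no Y gene lay between MapolyY_B0044, at 4.26 FPKM, and MapolyY_B0020, at 8.08 FPKM. Together the 112 Y genes gave 0.142% of the summed FPKM in MpBHLH12ox#2, 0.143% in MpBHLH12ox#3 and 0.139% in Tak-1, while they are 0.581% of the genes listed.

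MapolyY_A0041 was the most abundant Y transcript, with 211.8 FPKM in MpBHLH12ox#2, 213.7 in MpBHLH12ox#3 and 205.4 in Tak-1. It was the 1 Y gene above 100 FPKM, it lay above 96.8% of the expressed genes off the Y contigs, and it alone made up 23.2% of the summed Y FPKM in MpBHLH12ox#2, 23.4% in MpBHLH12ox#3 and 22.2% in Tak-1. MapolyY_A0025 followed with 82.7 and 78.3 FPKM in MpBHLH12ox#2 and MpBHLH12ox#3 and 85.5 in Tak-1. Its neighbour by number, MapolyY_A0024, had 54.7 and 57.9 FPKM in the lines and 58.4 in Tak-1. These 2 genes stand alone in their stretch of contig A, with 9 genes below 1 FPKM on the lower side and 4 on the upper side.

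The other 7 of the 10 most abundant Y genes lay within a narrow band of levels. On contig B, MapolyY_B0032 had 48.4 FPKM in MpBHLH12ox#2, 57.4 in MpBHLH12ox#3 and 54.4 in Tak-1. MapolyY_B0001 had 47.0 and 48.0 FPKM in the lines and 43.4 in Tak-1, MapolyY_B0017 had 38.1 and 38.6 in the lines and 34.6 in Tak-1, and MapolyY_B0021 had 35.4 and 34.7 in the lines and 33.4 in Tak-1. The last 3 were slightly higher in both lines.

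The small differences of 3 genes on contig A ran the other way. MapolyY_A0007 had 38.9 FPKM in MpBHLH12ox#2 and 42.4 in MpBHLH12ox#3, against 45.7 in Tak-1. MapolyY_A0044 had 40.1 and 41.9 FPKM in the lines and 43.4 in Tak-1, and MapolyY_A0056 had 30.4 and 30.6 in the lines and 34.3 in Tak-1. Of the 10 genes, 6 are on contig A and 4 on contig B, and their log2 changes ranged from -0.23 to 0.14 in MpBHLH12ox#2 and from -0.16 to 0.16 in MpBHLH12ox#3.

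**Figure D2:**
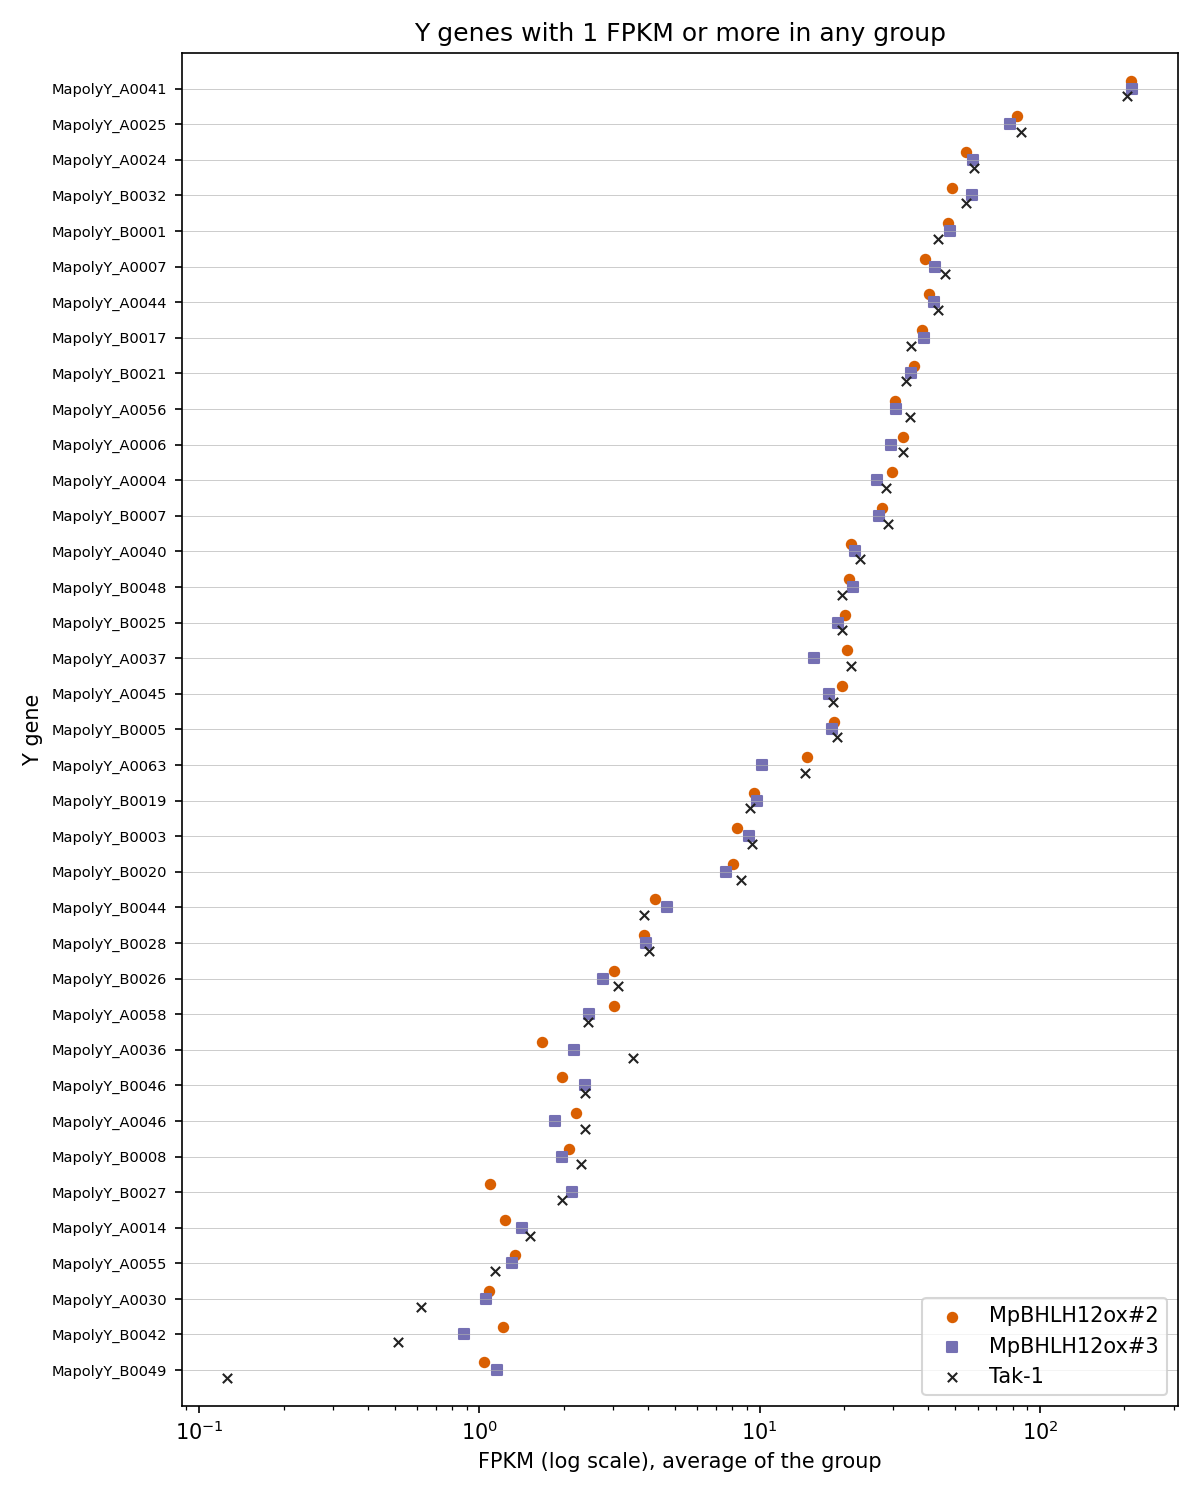
FPKM on a log scale (horizontal axis) of the 37 expressed Y genes, ordered by mean level (vertical axis); each marker is the authors' average of a group, with no error available. The 3 markers of a gene nearly coincide over most of the range, and they separate for low genes such as MapolyY_B0049, MapolyY_B0042, MapolyY_A0030 and MapolyY_A0036.

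Y genes above and below 1 FPKM alternated when the genes were put in order of the number in their identifiers. A block here is any run of consecutive genes on the same side of 1 FPKM, even a single gene. On contig A the longest blocks below 1 FPKM were MapolyY_A0015 to MapolyY_A0023 (9 genes) and MapolyY_A0047 to MapolyY_A0054 (8 genes). On contig B they were MapolyY_B0033 to MapolyY_B0041 (9 genes) and MapolyY_B0009 to MapolyY_B0016 (8 genes). Expressed genes formed shorter blocks. Most Y genes were below 1 FPKM, so longer blocks below it than above it follow from the shares alone. Whether expressed genes lie together more than in a random order was not tested. On contig B, MapolyY_B0025 to MapolyY_B0028 were 4 consecutive expressed genes, and MapolyY_B0017 and MapolyY_B0019 to MapolyY_B0021 were 4 more with no number but that of the left-out gene between them. On contig A the longest block was MapolyY_A0044 to MapolyY_A0046 (3 genes). Within MapolyY_B0025 to MapolyY_B0028 the level differed strongly: MapolyY_B0025 had 20.1 FPKM in MpBHLH12ox#2, 19.1 in MpBHLH12ox#3 and 19.7 in Tak-1, whereas MapolyY_B0026 had 3.02 FPKM in MpBHLH12ox#2, 2.75 in MpBHLH12ox#3 and 3.12 in Tak-1. Sharing a block thus did not mean sharing a level.

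**Figure D3:**
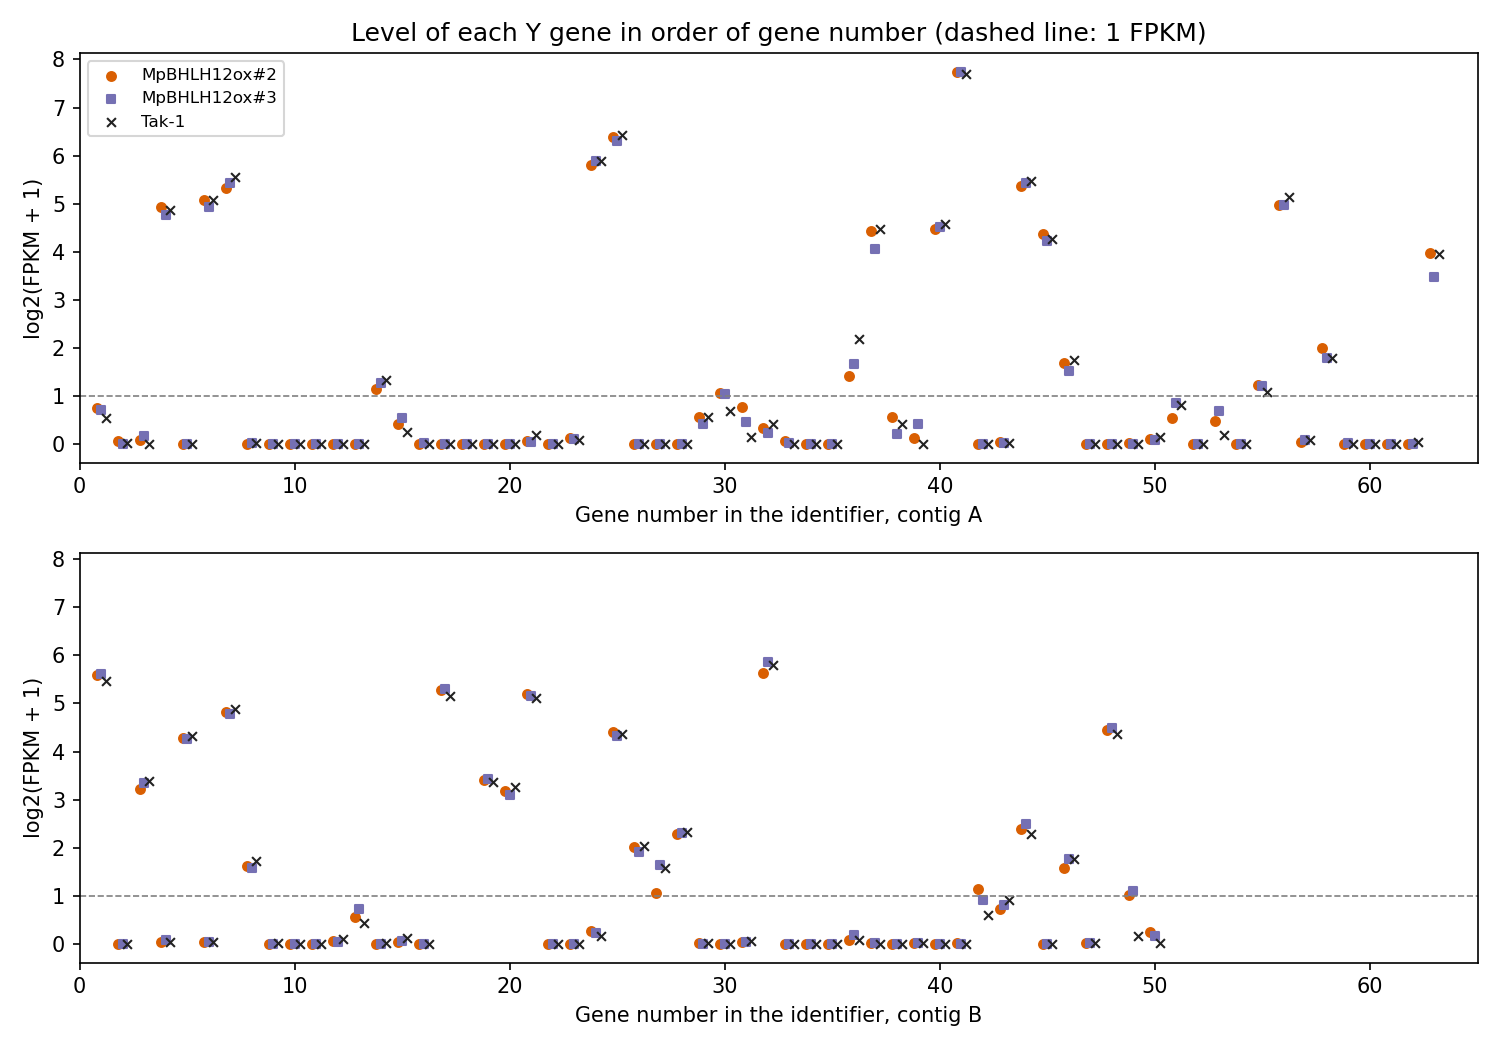
log2(FPKM + 1) of each Y gene (vertical axis) by the gene number in its identifier (horizontal axis), contig A above and contig B below, with 1 marker per group. Blocks below 1 FPKM, such as MapolyY_A0015 to MapolyY_A0023 and MapolyY_B0033 to MapolyY_B0041, alternate with expressed genes, and the 3 markers of most genes lie close together.

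No Y gene changed by the size used here in the MpBHLH12 overexpressor lines. Changes are log2(FPKM + 1) differences, line minus Tak-1, in which the added 1 understates the change of low genes, and a gene was counted as changed at a difference of 1 or more. None of the 78 Y genes with a value above 0 reached it (0 in MpBHLH12ox#2, 0 in MpBHLH12ox#3), where 3.12% of the 17939 such genes in the table did so in MpBHLH12ox#2 and 3.41% in MpBHLH12ox#3. By construction, the 41 Y genes that stayed above 0 but below 1 FPKM could not reach it. Among genes expressed in any group the shares in the table were 4.20% and 4.59%, against 0 of 37 Y genes. In both lines together, in the same direction, 0 Y genes changed and 3.08% of the expressed genes did. With shares this small, 0 of 37 lies near the background. The count depends on the value added: with 0.1 in place of 1, 6 of the 78 Y genes changed in MpBHLH12ox#2 and 5 in MpBHLH12ox#3, where 7.27% and 7.76% of all genes above 0 did. In bulk thalli, fewer cells of a type and less RNA per cell cannot be told apart.

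The expressed Y genes as a group stayed close to their Tak-1 levels. Among the 37, the median of the log2 changes was -0.035 (MpBHLH12ox#2) and -0.044 (MpBHLH12ox#3), against 0.002 and 0.004 among the expressed genes off the Y contigs. The sizes of the changes, regardless of direction, were also smaller. The median absolute log2 change of the 37 Y genes was 0.10 (MpBHLH12ox#2) and 0.11 (MpBHLH12ox#3), against 0.17 and 0.16 for the 13286 other genes.

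The same held for well expressed genes. All 23 Y genes that averaged at least 5 FPKM were within 0.25 of Tak-1 on the log2 scale in MpBHLH12ox#2, and 21 of the 23 were in MpBHLH12ox#3 (91.3%). Of the 10356 other genes at that level, 66.8% and 68.3% were so close. Between the lines, MpBHLH12ox#3 minus MpBHLH12ox#2, 91.3% of the 23 Y genes and 89.1% of the other genes were within 0.25. Genes on scaffolds with 5 or fewer genes lay farther from it, with 46.5% and 43.2% of 241 genes within 0.25 of Tak-1 in MpBHLH12ox#2 and MpBHLH12ox#3.

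**Figure D4:**
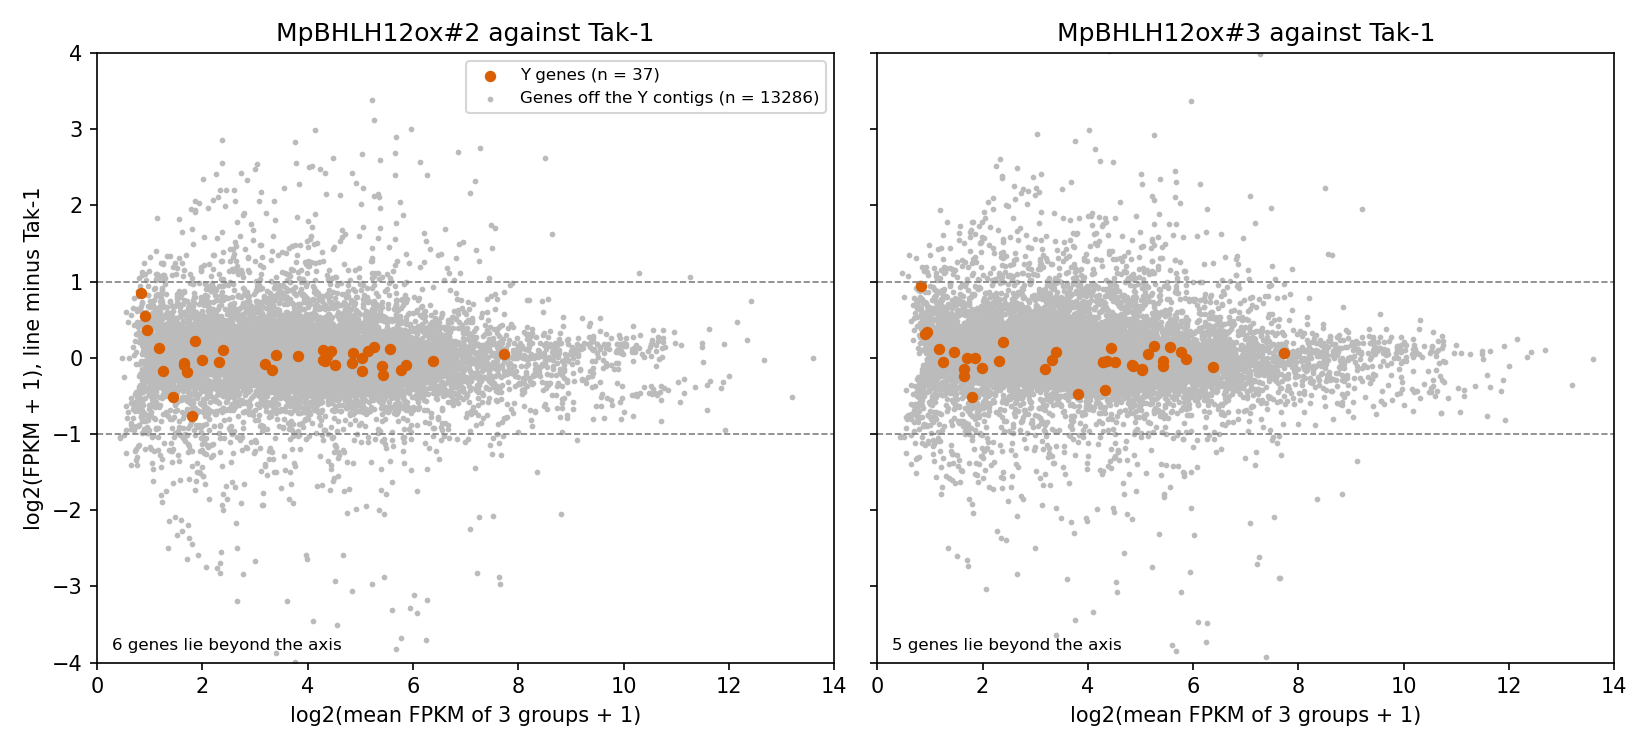
log2(FPKM + 1) of a line minus Tak-1 (vertical axis) against log2(mean FPKM of the 3 groups + 1) (horizontal axis) for the 37 expressed Y genes and the 13286 expressed genes off the Y contigs, MpBHLH12ox#2 on the left and MpBHLH12ox#3 on the right; dashed lines mark a difference of 1. All 37 Y genes lie between the dashed lines in both panels, and 6 other genes on the left and 5 on the right lie beyond the axis.

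At a smaller size of 0.5 on the log2 scale, 4 of the 37 expressed Y genes differed from Tak-1 in MpBHLH12ox#2 (10.8%), 2 of them higher and 2 lower, where 15.4% of all expressed genes did (8.04% higher and 7.38% lower). In MpBHLH12ox#3, 2 of the 37 differed (5.41%), 1 higher and 1 lower, where 15.8% of all expressed genes did (9.68% higher and 6.15% lower). These 2 genes also passed this size in MpBHLH12ox#2, against 11.2% of expressed genes past it in both lines. The gene higher in both lines was MapolyY_B0049, and the gene lower in both was MapolyY_A0036. In MpBHLH12ox#2 alone, MapolyY_B0042 was higher and MapolyY_B0027 lower by this size. MapolyY_B0049 and MapolyY_B0042 were below 1 FPKM in Tak-1 and entered the 37 only through the lines. The filter lets in low genes where a line is high, so these increases are no support for a rise. The lines share the Tak-1 average, so a high or low Tak-1 average moves both differences the same way.

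MapolyY_B0049 had the largest difference of any Y gene. It had 1.04 FPKM in MpBHLH12ox#2 and 1.16 in MpBHLH12ox#3, against 0.126 in Tak-1. Both lines were thus near 1 FPKM and Tak-1 was well below it. The log2 changes of 0.85 and 0.94 fell just short of the size of 1, and they became 2.33 and 2.48 with a pseudocount of 0.1. The next gene by number, MapolyY_B0050, was also higher in both lines at lower levels, with 0.189 and 0.125 FPKM in the lines and 0.0182 in Tak-1. The gene that precedes MapolyY_B0049 by number, MapolyY_B0048, had 20.9 and 21.5 FPKM in the lines and 19.7 in Tak-1, log2 changes of 0.083 and 0.12.

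MapolyY_A0036 was the expressed Y gene with the largest decrease. It had 1.68 FPKM in MpBHLH12ox#2 and 2.18 in MpBHLH12ox#3, against 3.53 in Tak-1, log2 changes of -0.76 and -0.51. Its neighbour MapolyY_A0037 had 20.5 FPKM in MpBHLH12ox#2 and 15.6 in MpBHLH12ox#3, against 21.2 in Tak-1. That gene was near its Tak-1 level in the first line and lower in the second, with log2 changes of -0.047 and -0.42.

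A pair of other low genes were higher in both lines than in Tak-1, both from under 1 FPKM. They counted as expressed only through the lines. MapolyY_B0042 had 1.21 FPKM in MpBHLH12ox#2 and 0.882 in MpBHLH12ox#3, against 0.514 in Tak-1, log2 changes of 0.55 and 0.31. MapolyY_A0030 had 1.08 and 1.05 FPKM in the lines and 0.620 in Tak-1, log2 changes of 0.36 and 0.34. MapolyY_B0044 completed the largest increases outside the abundant genes, with 4.23 and 4.65 FPKM in the lines and 3.88 in Tak-1. The threshold of 1 FPKM passes close to several of these genes. Just inside it lay MapolyY_A0030 and MapolyY_B0049, and just outside lay MapolyY_B0043, with 0.662 and 0.763 FPKM in MpBHLH12ox#2 and MpBHLH12ox#3 and 0.883 in Tak-1, and MapolyY_A0051, with 0.457 FPKM in MpBHLH12ox#2, 0.814 in MpBHLH12ox#3 and 0.759 in Tak-1.

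Over the 78 Y genes above 0, MpBHLH12ox#2 lay above Tak-1 in 39 and below it in 37, and MpBHLH12ox#3 lay above it in 38 and below it in 38. Among those below 1 FPKM, MapolyY_A0031 had 0.710 FPKM in MpBHLH12ox#2 and 0.372 in MpBHLH12ox#3, against 0.116 in Tak-1. MapolyY_A0053 had 0.398 and 0.612 FPKM in the lines and 0.137 in Tak-1. MapolyY_A0039 is listed at 0 in Tak-1 and had 0.0874 and 0.338 FPKM in the lines, for which no fold is given. In the other direction, MapolyY_A0021 had 0.0488 FPKM in MpBHLH12ox#2 and 0.0341 in MpBHLH12ox#3, against 0.141 in Tak-1. These 4 genes were chosen after their values were seen. The averages do not show how many fragments or how many replicates stand behind such values.

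The lines differed little from each other, in Y genes as in other genes. Between the lines, 91.9% of the 37 expressed Y genes and 86.3% of the 13286 others were within 0.25 on the log2 scale. For MpBHLH12ox#3 minus MpBHLH12ox#2, 0 of the 37 expressed Y genes differed by 1 or more (0.600% of all expressed genes did), and 1 differed by 0.5 or more (3.53% of all expressed genes did). That gene was MapolyY_B0027, with 2.13 FPKM in MpBHLH12ox#3 and 1.09 in MpBHLH12ox#2, a log2 difference of 0.59, and Tak-1 at 1.97 FPKM lay with MpBHLH12ox#3. In the opposite direction, MapolyY_A0063 had 10.2 FPKM in MpBHLH12ox#3 and 14.8 in MpBHLH12ox#2, a log2 difference of -0.50 when rounded and just short of that size, and Tak-1 had 14.5. MapolyY_A0037 followed at -0.37. MapolyY_A0063 and MapolyY_A0037 were the 2 well expressed Y genes more than 0.25 from Tak-1, both in MpBHLH12ox#3 alone, and whether the lines differ in them could not be tested from averages.

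By contig, the small differences of MpBHLH12ox#3 from Tak-1 were uneven. Of the 18 expressed genes of contig A, 14 were lower and 4 higher in MpBHLH12ox#3 than in Tak-1, with a median log2 change of -0.083. Of the 19 of contig B, 8 were lower and 11 higher, with a median of 0.054. In MpBHLH12ox#2 the counts were 10 lower and 8 higher on contig A and 10 lower and 9 higher on contig B, with medians of -0.047 and -0.030. Of the 13286 expressed genes off the Y contigs, 6526 were lower and 6760 higher in MpBHLH12ox#3. In MpBHLH12ox#2, 6584 of them were lower and 6700 higher. Genes of a contig are not replicates, and the unevenness was not tested. For scale, the median absolute difference between the lines was 0.080 over the 37 genes. That is a spread of single genes and not of a median.

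Near-identical copies limit single values. The handling of reads that map to several places is unknown (not given in the sources used here), so levels of Y genes that belong to repeats, or that have a close copy on or off the Y, are uncertain.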

How the data were processed

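The authors aligned NextSeq500 reads of 9 thallus libraries against the JGI 3.1 genome using Bowtie2 and obtained fragment numbers with HTseq. The submitters' processing notes also list Cuffdiff 2.2.1 without a role. The paper tested genes for differences between Tak-1 and the lines with EdgeR, with Benjamini-Hochberg correction. The results of that test were not used here. The annotation and the treatment of multiply mapped reads are unknown (not given in the sources used here). Deposited FPKM values are averages of each group, so no replicate value, depth or error was available. The planned model across replicates was therefore replaced by the rule of size set for that case.

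Groups came from the sample titles, which use MpGL3 for MpBHLH12. Changes were log2(FPKM + 1) of a line minus Tak-1, over all genes not at 0 throughout. Y genes and lists were chosen with earlier results of these data known. Named Y genes were the 10 highest by mean level, those past the size rule, the 5 largest mean increases and decreases, the 3 largest differences between the lines each way, the 2 nearest 1 FPKM on either side, and genes at 0 in some groups with 1 FPKM or more in another, of which there were 0. MapolyY_B0048, MapolyY_B0050, MapolyY_B0025, MapolyY_B0026, MapolyY_B0020, MapolyY_A0031, MapolyY_A0053, MapolyY_A0039 and MapolyY_A0021, and the block ends, were named after their values were seen. None of the identifiers matched the RefSeq gene table of assembly MpTak2_v7.1 (0 matches), so no sequence or position is shown.

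Alternatives were other pseudocounts, sizes, filters, thresholds of expression, a rescaling, and each contig alone. Scripts were tested on simulated data. Python 3.11.15, numpy 2.4.6, pandas 2.3.3 and matplotlib 3.10.9 were used.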

Additional observations from a re-analysis of the deposited data

How the results depend on the processing

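No paired analysis was possible because each group has a single averaged column; leaving out replicates was not run for the same reason. Depth could not be examined. The count of 37 expressed Y genes was between 32 and 54 at thresholds from 0.1 to 2 FPKM and 34 with 1 FPKM required in every group; it was 23 at 5 FPKM, 18 on contig A alone and 19 on contig B alone. The median mean level, 18.5 FPKM, was 0.0519 over all Y genes, 8.95 on contig B alone and 28.1 over Y genes averaging at least 5 FPKM. With a pseudocount of 0.1, 6 Y genes changed by 1 or more in MpBHLH12ox#2, 5 in MpBHLH12ox#3 and 3 in both lines, and 2 lay apart between the lines, against 0 in each case with a pseudocount of 1. At a size of 0.5 the counts, over the 78 Y genes above 0, were 5, 3, 2 and 1 in the same order, and 12.0%, 12.2%, 8.62% and 2.79% of all genes above 0 passed it. A smaller pseudocount or size raises such counts by construction. Of all genes above 0, 7.27%, 7.76%, 4.92% and 2.12% passed with a pseudocount of 0.1. The median change in MpBHLH12ox#3, -0.044, was 0.054 on contig B alone; the cause was not tested. A pseudocount of 5, a size of 2 and both filters left the counts of changed Y genes at 0, where each was tried. By construction these settings could not raise a count of 0, so they are no check of it. Rescaling also left the counts at 0, and the median log2 ratios it removed were only -0.0052 in MpBHLH12ox#2 and -0.0055 in MpBHLH12ox#3. Medians of the changes were marked as moved at 0.080 or more from the main value. That is the median absolute difference between the lines over single genes, and it does not measure the spread of a median.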

Other observations

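The comparison of scaffolds was chosen after seeing the data. Among the 164 scaffolds and Y contigs with 30 or more listed genes, the Y contigs had the lowest shares of expressed genes but for 2 scaffolds, with 28.6% on contig A and 38.8% on contig B. On contigs A and B, 33.3% and 26.5% of genes were listed at 0 in all 3 groups. Scaffolds 17 and 18 had fewer expressed genes: 5 of 31 genes (16.1%) and 6 of 32 genes (18.8%) reached 1 FPKM in any group, and 17 and 18 genes were listed at 0 in all 3 groups (54.8% and 56.2%). The next scaffold, number 170, had 43.6% of 39 genes expressed and 7.69% at 0. Which chromosome they belong to was not examined here.

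With a pseudocount of 0.1, the 3 Y genes with a log2 increase of 1 or more in both lines were MapolyY_A0031, MapolyY_A0053 and MapolyY_B0049. None was lower by this size in both. Counting increases and decreases, 883 of the 17939 genes above 0 in the table (4.92%) passed likewise, so 3 of 78 Y genes was no excess. That share was not split by direction, so the lack of decreases has no comparison. The 3 Y genes had 0.116, 0.137 and 0.126 FPKM in Tak-1, where the averages give no number of fragments. In the same order, their log2 changes were 1.91 and 1.13, 1.07 and 1.59, and 2.33 and 2.48 in MpBHLH12ox#2 and MpBHLH12ox#3.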
